A study of Bos taurus with 53 samples.

Results

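Mitochondrial ribosomal proteins are encoded in the nucleus, made in the cytosol and imported into mitochondria, where they assemble with mitochondrial ribosomal RNA into a large and a small subunit. The finished ribosome translates the few proteins that mitochondrial DNA encodes, all of them parts of the respiratory chain and ATP synthase. The genes described here are the 71 rows of the expression table, of 24596 features in all, whose symbol starts with MRPL or MRPS followed by a number. The prefix names the subunit in which the protein was first placed, large for the 45 MRPL rows and small for the 26 MRPS rows. By number, 38 rows belong to proteins with a bacterial homologue (MRPL up to 36, MRPS up to 21) and 33 to proteins specific to mitochondria.

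The RNA came from bovine embryos of day 14, when the embryo is elongating and most of its mass is trophectoderm. Each embryo came from an oocyte that matured in 1 of 3 media, still within its cumulus cells, and all embryos then shared the same fertilisation and culture, including fetal bovine serum in the culture medium. CONTROL medium held neither fatty acids nor solvent. BASAL medium held 28 µM stearic, 23 µM palmitic and 21 µM oleic acid in 0.45% ethanol. HIGH PA medium held 150 µM palmitic acid with the same stearic acid, oleic acid and ethanol, so CONTROL differs from both others in solvent as well as in fatty acids. Embryos were recovered from recipient cows and cut into the embryonic disc (ED) and the extraembryonic part (EX). The table holds 53 libraries of 30 embryos from 7 cows: 3 CONTROL, 12 BASAL and 8 HIGH PA discs, 4 CONTROL, 14 BASAL and 10 HIGH PA extraembryonic samples, and 2 undissected HIGH PA embryos that entered no comparison. All CONTROL embryos came from 1 cow, and embryos of a cow in a medium may share a flush. Embryo shape was recorded as tubular, ovoid or, in 2 HIGH PA extraembryonic samples and 1 undissected HIGH PA embryo, spherical.

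Levels are given as scaled CPM, the exon reads of a gene as counts per unit of library size (CPM) after trimmed-mean scaling of library sizes. The 2 libraries under 10000 reads (ED BASAL replicate 7 with 6814 and EX BASAL replicate 7 with 9810) are left out of levels and kept in the fits. The other discs held 119116 to 6167850 reads and the other extraembryonic samples 340016 to 19533821. Disc identity was checked on epiblast markers, which were all lower in EX (7 of 7 called), while 6 of 8 trophectoderm markers were higher in EX and 7 of 7 hypoblast markers were lower there. Summed trophectoderm markers reached 470 to 3857 scaled CPM in discs against 1013 to 11790 in extraembryonic samples, so the discs also held trophectoderm RNA. In ED BASAL replicate 12, the disc markers SOX2, NODAL and EOMES were at 0, and the tissue result is also given without it. Tissue was bulk RNA, in which more cells of a type and more RNA per cell cannot be told apart. Discs and extraembryonic parts were extracted with different kits, per the labels, which cannot be told apart from tissue. CD74, the only marker of maternal blood or endometrium that could be tested, was lower in EX (-6.76, SE 0.35, on the log2 scale).

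A further set of 7 extraembryonic libraries stood apart. The column names of the table carry the mark EX_2 for them (EX HIGH PA replicates 1, 3, 6 and 10 and EX BASAL replicates 5, 6 and 11), and the labels do not say what the mark means. The summed level of the 71 genes ran from 3818 to 8899 scaled CPM (median 6527) in these 7 and from 3479 to 5666 (median 4972) in the other 20. Transcripts of mitochondrial DNA took 3.56% to 17.6% of reads (median 8.99%) in the marked libraries and 2.22% to 5.74% (median 3.46%) in the others. The 2 ranges of the summed level overlap, and the 5 highest libraries are all marked. EX BASAL replicate 11 has both the highest summed level and the highest share of mitochondrial transcripts. The results on tissue and on shape are therefore given with and without the marked libraries.

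**Figure D1:**
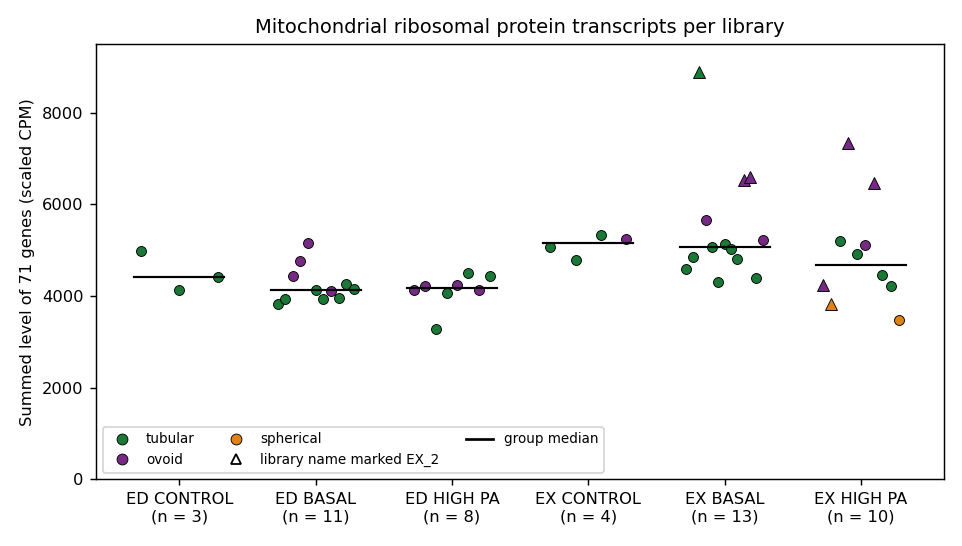
Summed level of the 71 mitochondrial ribosomal protein genes (scaled CPM, vertical axis from 0) in each library over 10000 reads, by tissue and medium. Colour gives embryo shape, triangles are libraries marked EX_2 and bars are group medians, which lie between 4130 and 4414 in discs and between 4684 and 5159 in extraembryonic samples.

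All 71 genes had reads in every extraembryonic library over 10000 reads. The genes took 0.401% to 0.545% of exon reads in discs (median 0.462%) and 0.372% to 0.608% in extraembryonic samples (median 0.480%). The MRPL rows made up 62.7% to 66.9% of the summed scaled CPM in discs and 64.9% to 66.7% in extraembryonic samples. This share of transcripts by prefix varied little between libraries, and the subunits themselves were not measured. Per kilobase of exon, the median member stood at 51.6 scaled CPM per kb in discs and 64.6 in extraembryonic samples. The same measure gave 1385 and 1478 for cytosolic ribosomal proteins, which build the ribosome of the cytosol, and 132 and 155 for nuclear subunits of oxidative phosphorylation. It gave 13.97 and 17.9 for factors that assemble the mitochondrial ribosome and 10.5 and 11.7 for mitochondrial aminoacyl-tRNA synthetases, the enzymes that charge transfer RNAs. By these medians, transcripts of the members lay below those of the respiratory chain subunits and above those of the assembly factors and synthetases in both tissues.

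The order of the members by level per kb was nearly the same in both tissues (Spearman's rho 0.954 across the 71 genes, which share libraries and are not replicates). The highest median level per kb in discs was that of MRPL11 at 130, followed by MRPL16 at 123 and MRPS26 at 121. In extraembryonic samples MRPL20 led at 164, with MRPL16 at 151 and MRPL27 at 149. These neighbours differ by less than the spread between libraries. The lowest levels were those of MRPL33_1, at 5.98 in discs, and MRPL14, at 14.5 in extraembryonic samples. MRPL33_1 and MRPL33_2 are 2 rows of 198 bases each on chromosomes 13 and 14, none of whose reads was placed uniquely (0%), so reads may be split between them or belong to another copy. Unique placement was also incomplete for MRPL14 (31.5%), MRPL10 (55.2%) and MRPL15 (85.1%). MRPL10, MRPL14, MRPL43, MRPL55, MRPS22, MRPS6 and MRPS31 overlap another annotated feature, and the sources do not state whether counting used strand. Their values, and those of the MRPL33 rows, are uncertain to that extent.

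Within a tissue the members moved together across libraries more in extraembryonic samples than in discs. Over the 2346 pairs of members other than the MRPL33 rows, the median correlation of log2 levels was 0.61 in 27 extraembryonic libraries, 0.45 in the 20 without the mark and 0.16 in 22 discs. The median over all pairs of tested genes was 0.01, 0.01 and 0.05. These correlations are descriptions over genes that share libraries, depth and scaling, and discs were sequenced less deeply.

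The comparison of the 2 parts of the same embryo asks how the extraembryonic tissue differs from the disc. Mitochondrial ribosomal protein transcripts were higher in the extraembryonic part. The share of intron reads also differed, at 7.73% to 16.8% (median 8.91%) in discs and 6.39% to 11.2% (median 7.202%) in extraembryonic samples, and its part in the result was not tested. In the fit with embryo as a block (edgeR's quasi-likelihood test, adjusted over all genes), 46 of 71 members were called higher in EX and 1 lower, at an adjusted p under 0.05. Across all 12291 genes tested, 24.2% were called higher and 31.5% lower. The median log2 fold change of the members was 0.37, against -0.02 for all genes, with quartiles of 0.18 and 0.48. Of the members 68 of 71 were above 0, 16 were above 0.5 and 1 was above 1, so the shift was small and shared. Both subunits took part: 30 of 45 large subunit genes rose and 1 fell (median 0.37), and 16 of 26 small subunit genes rose and 0 fell (median 0.33). The bacterial homologues (26 of 38 higher, 1 lower, median 0.39) and the mitochondria-specific proteins (20 of 33 higher, 0 lower, median 0.33) gave much the same counts.

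Without the embryos that have a marked library, 42 members were called higher, 41 of them among the 46, and 2 lower, and the median was 0.23. In that fit 29.4% of all genes were called higher and 32.8% lower. Without ED BASAL replicate 12, 46 members were called higher, 45 of them among the 46, and 1 lower, with a median of 0.36. That fit called 25.3% of all genes higher and 31.9% lower. The scale of the shift rests on how library sizes are set. When library totals were used with no scaling factor, the median over all genes was -0.26, that of the members was 0.12, and 23 members were called higher and 6 lower. Over the genome, 9.59% of genes were called higher and 44.2% lower with library totals. Relative to the median of all genes, the members stood 0.38 higher under both scalings. A change of scaling moves all genes by nearly the same amount, so this difference could hardly change and is no check of the scaling. Of all calls over the genome, 43.5% were higher in EX with scaling factors, 33.3% with DESeq2 size factors in edgeR and 17.8% with library totals. With library totals 44 of 71 members were above 0, and of the called members named here MRPS18B changed sign.

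**Figure D2:**
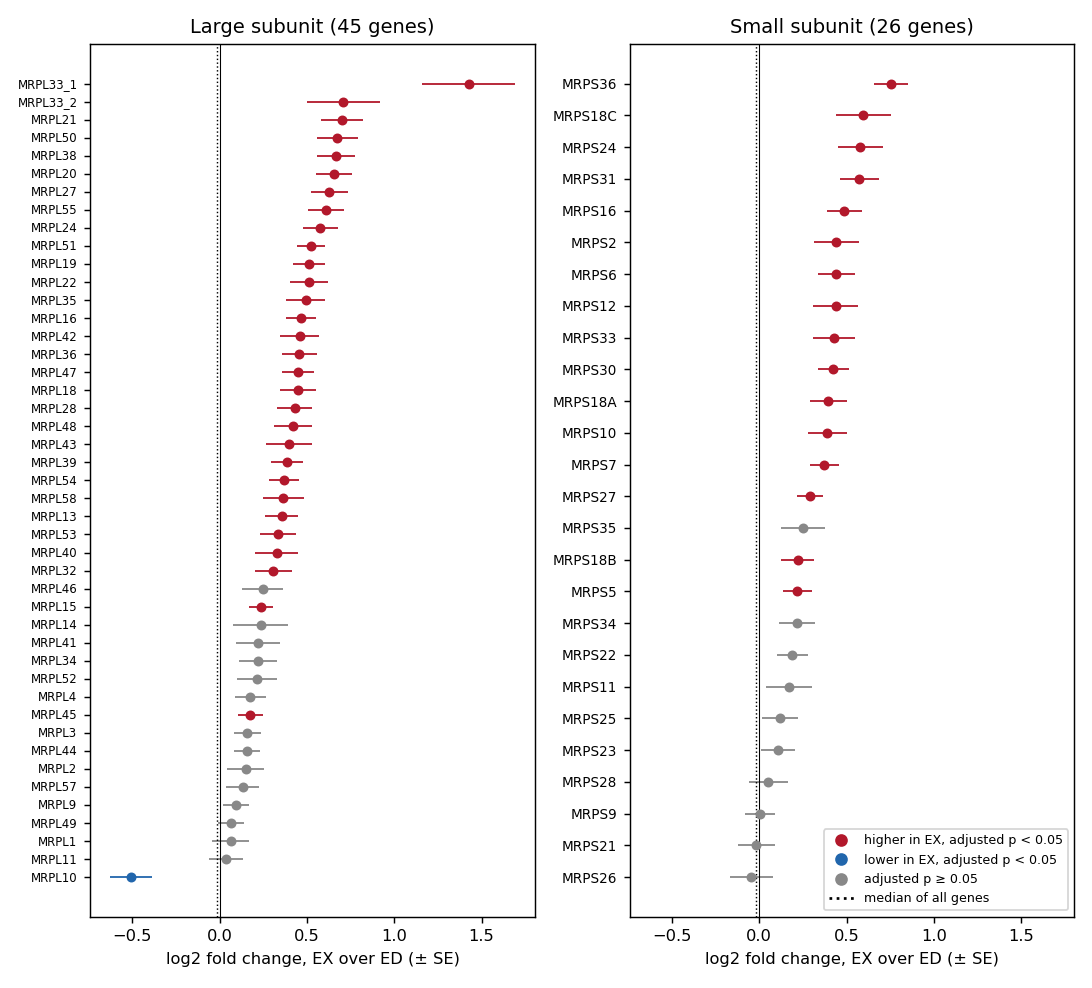
log2 fold change of EX over ED with its standard error for every member, large subunit on the left and small subunit on the right (fit with embryo as a block, 23 embryos). Red points were called higher and the blue point, MRPL10, lower; most members lie to the right of the dotted line, the median of all genes.

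Across the 22 embryos with both parts over 10000 reads, the median difference of the members between EX and ED was above 0 in 22 of 22, from 0.02 to 1.28 on the log2 scale (mean 0.37 ± 0.30, SD). It exceeded the embryo's own median over all genes in 20 of 22. The 6 embryos with a marked extraembryonic library lay between 0.32 and 1.28 and the other 16 between 0.02 and 0.46, with a mean of 0.24 ± 0.14 (SD). By medium, the difference was 0.16 ± 0.13 in 3 CONTROL, 0.40 ± 0.33 in 11 BASAL and 0.40 ± 0.28 in 8 HIGH PA embryos (SD). The median was above 0 in each medium, within a wide spread between embryos. In CONTROL embryos alone 11 of 71 members were called higher, against 14.6% of all genes, and 1 of the 3 had a member median (0.04) below its own median over all genes (0.23). Discs were sequenced on lanes 1, 2 and 3 and most extraembryonic parts on lanes 3, 4 and 8. By the lane of the extraembryonic library the difference was 0.38 ± 0.29 on lane 3 (SD, n = 7), 0.40 ± 0.36 on lane 4 (SD, n = 10) and 0.25 ± 0.15 on lane 8 (SD, n = 4).

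The lowest p-values belonged to MRPS36 and to 7 large subunit genes. MRPS36 lies on chromosome 20 from 10390981 to 10399140 (UMD3.1, as all coordinates here). It was named as a ribosomal protein but is now known as a component of the 2-oxoglutarate dehydrogenase complex of the citric acid cycle. Its level ran from 12.7 to 34.3 scaled CPM in discs (median 23.9) and from 23.3 to 53.5 in extraembryonic samples (median 40.9). It was higher in EX in 22 of 22 embryos although the 2 ranges overlap. Its log2 fold change was 0.75 (SE 0.10, edgeR adjusted p = 1.18e-07), and 0.81 without the marked embryos.

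MRPL51, a mitochondria-specific protein of the large subunit (chromosome 5, 104273437 to 104276752), ran from 71.005 to 131 scaled CPM in discs (median 105) and from 73.5 to 216 in extraembryonic samples (median 146). It was also higher in EX in 22 of 22 embryos, with a log2 fold change of 0.52 (SE 0.08). MRPL55, another mitochondria-specific large subunit protein, overlaps GUK1 and was the third member that was higher in all 22 embryos. It ran from 45.5 to 108 in discs (median 60.5) and from 72.1 to 258 in extraembryonic samples (median 85.8), with a log2 fold change of 0.61 (SE 0.10). The disc and extraembryonic ranges overlapped in all 71 members, and the matching share over all genes is not given here.

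MRPL20 is the counterpart of a bacterial protein that binds ribosomal RNA early in assembly (chromosome 16, 52383423 to 52386462). Its level was 6.86 to 128 scaled CPM in discs (median 75.5) and 72.6 to 170 in extraembryonic samples (median 116), higher in EX in 21 of 22 embryos. The lowest disc value was that of ED HIGH PA replicate 5, the shallowest disc used for levels. MRPL27 is the counterpart of a protein that reaches towards the site of peptide bond formation. It ran from 38.8 to 110 in discs (median 66.9) and from 49.5 to 188 in extraembryonic samples (median 98.5). MRPL38, a mitochondria-specific protein of the central protuberance of the large subunit, ran from 41.9 to 91.9 in discs (median 67.7) and from 50.1 to 231 in extraembryonic samples (median 99.3). Each of the 3 had a log2 fold change between 0.63 and 0.67 (SE 0.10 to 0.11), and between 0.54 and 0.56 without the marked embryos. MRPL27 and MRPL38 were each higher in EX in 20 of 22 embryos.

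MRPL21 and MRPL50 complete the 8 of lowest p. MRPL21 has a bacterial homologue, and its median was 38.1 scaled CPM in discs and 53.2 in extraembryonic samples, with ranges of 20.0 to 61.8 and 19.3 to 170. MRPL50 is specific to mitochondria, and its median was 31.5 in discs and 50.9 in extraembryonic samples, with ranges of 17.3 to 75.5 and 19.3 to 71.2. Both were higher in EX in 20 of 22 embryos, by 0.70 (SE 0.12) and 0.67 (SE 0.12) on the log2 scale. The adjusted p of these 8 genes ran from 1.18e-07 to 1.44e-05 by edgeR (MRPS36 and MRPL50). By size of change MRPL33_1 came first at 1.43 (SE 0.26), then MRPS36, then MRPL33_2 at 0.71 (SE 0.21). The MRPL33 rows rest on medians of 1.18 and 2.71 scaled CPM in discs and 3.59 and 4.39 in extraembryonic samples, and on reads without a unique place.

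Among the small subunit, MRPS16 (0.49, SE 0.10), MRPS30 (0.43, SE 0.09) and MRPS7 (0.37, SE 0.08) were called higher. MRPS7 and MRPS12 have bacterial homologues that bind ribosomal RNA near the transfer RNAs and at the decoding centre, and MRPS30 carries a small subunit name but is found in the large subunit. MRPS7 and MRPS30 were each higher in EX in 21 of 22 embryos and MRPS16 in 19. MRPS12 was called higher (0.44, SE 0.13), with 1 disc at 0 (ED HIGH PA replicate 5) and a range of 16.2 to 33.5 in the other 21 discs. MRPS18B passed narrowly (0.22, SE 0.09, edgeR adjusted p = 0.0471) and was at -0.03 when library totals were used with no scaling factor. Not called were MRPS22 (0.19, SE 0.09), MRPS34 (0.22, SE 0.10), MRPL44 (0.15, SE 0.07), MRPL3 (0.16, SE 0.08) and MRPL41 (0.22, SE 0.13), with adjusted p from 0.0615 to 0.137. The 95% intervals of MRPS34 and MRPL41 reach 0.42 and 0.46 and so hold the members' median of 0.37, while those of MRPS22, MRPL3 and MRPL44 end at 0.36, 0.31 and 0.30.

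**Figure D3:**
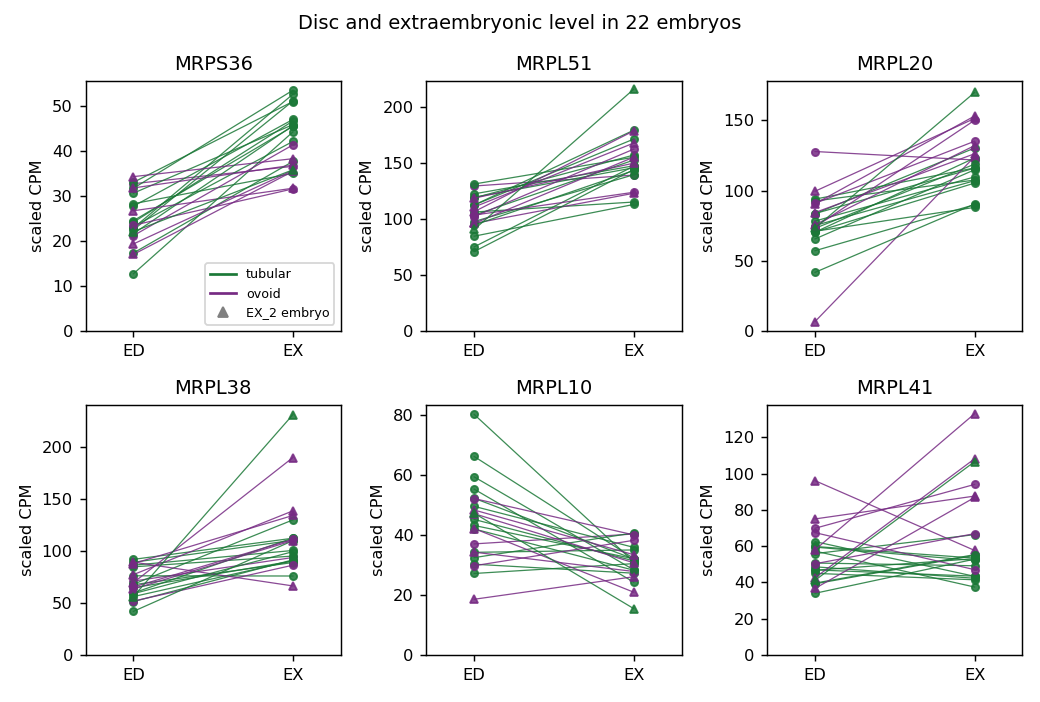
Level of 6 members (scaled CPM, axes from 0) in the disc and extraembryonic part of 22 embryos, each line an embryo, coloured by shape, with triangles for embryos whose extraembryonic library is marked EX_2. MRPS36 and MRPL51 rise in every embryo, MRPL20 and MRPL38 in 21 and 20, MRPL10 rises in 6, and MRPL41, which was not called, rises in 12.

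MRPL10 was the exception. Its bacterial counterpart anchors the flexible stalk that recruits translation factors. MRPL10 (chromosome 19, 39245740 to 39251565) ran from 18.6 to 80.3 scaled CPM in discs (median 44.3) and from 15.5 to 40.7 in extraembryonic samples (median 31.4). It was higher in EX in 6 of 22 embryos only, with a log2 fold change of -0.51 (SE 0.12, edgeR adjusted p = 0.000565). The fall was -0.43 on uniquely placed reads and -0.47 without the marked embryos. The row overlaps SP2, and 55.2% of its reads were placed uniquely. Without the marked embryos MRPS26 was the other member called lower.

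Other genes of the mitochondrial translation system were read from the same fit, with no test of a difference between lists. Of the 5 remaining mitoribosomal proteins measured, which do not carry the prefix, 3 rose: DAP3 (0.41, SE 0.09), PTCD3 (0.40, SE 0.09) and AURKAIP1 (0.33, SE 0.12), all of the small subunit. Of 15 translation factors 10 rose and 0 fell (median 0.32), led by TSFM (0.32, SE 0.07), GFM2 (0.40, SE 0.09) and TUFM (0.45, SE 0.11), of which TUFM brings transfer RNA to the ribosome, TSFM recharges TUFM and GFM2 acts in ribosome recycling. Of 13 factors of mitochondrial DNA and its transcripts 10 rose and 0 fell (median 0.37), led by TEFM, an elongation factor of mitochondrial transcription (0.69, SE 0.11), ELAC2, which trims transfer RNAs (0.50, SE 0.08), and TFB2M, a transcription initiation factor (0.37, SE 0.09). Of 23 assembly factors 7 rose and 1 fell (median 0.14): MPV17L2 had 0.86 (SE 0.13), MTERF3 0.62 (SE 0.14) and RPUSD4 0.44 (SE 0.11), while GTPBP10, a GTPase of large subunit assembly, fell by 0.53 (SE 0.14). Of 18 mitochondrial aminoacyl-tRNA synthetases 2 rose, MARS2 and WARS2, and 2 fell (median 0.11). GTPBP10 and COX1 below were named after their values were seen. Of 8 regulators of mitochondrial gene expression 3 rose, ESRRA (0.52, SE 0.10), PPARGC1A (0.74, SE 0.26) and GABPA (0.31, SE 0.12). The other regulators are given after their values were seen. NRF1 was higher in EX in 10 of 22 embryos, YY1 in 6, PPRC1 in 13, and MYC and PPARGC1B in 15 each.

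Of 11 transcripts of mitochondrial DNA 7 rose and 0 fell (median 0.55), COX1 by 0.85 (SE 0.17). Of 58 nuclear subunits of oxidative phosphorylation 37 rose and 3 fell (median 0.33). Cytosolic ribosomal proteins had a median of 0.25, with 25 of 43 higher and 1 lower. Whether the members' shift differs from that of these lists was not tested. Without the embryos that have a marked library, 3 of the 11 transcripts of mitochondrial DNA were higher (median 0.18), 29 of 57 nuclear oxidative phosphorylation genes were higher and 5 lower (median 0.20), and 9 of 43 cytosolic ribosomal proteins were higher and 2 lower (median 0.12). In that fit 8 of 15 translation factors (1 lower), 5 of 23 assembly factors (1 lower), 9 of 13 factors of mitochondrial DNA and its transcripts and 5 of 18 synthetases (2 lower) were higher. In the fit on all embryos without scaling factors, the median of the transcripts of mitochondrial DNA was 0.28. There it was 0.08 for nuclear oxidative phosphorylation genes and -0.01 for cytosolic ribosomal proteins, against 0.12 for the members.

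**Figure D4:**
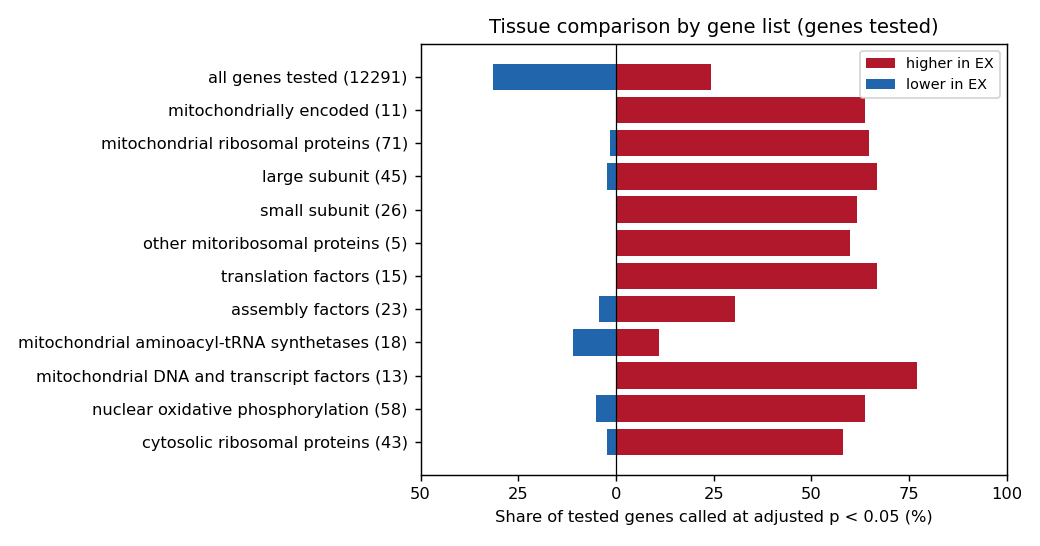
Share of the tested genes of each list that was called higher (red, to the right) or lower (blue, to the left) in EX than in ED, with the number tested in brackets. In all genes 24.2% were higher and 31.5% lower, whereas 46 of 71 mitochondrial ribosomal proteins were higher and 1 lower.

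The comparisons of maturation media ask whether fatty acids met by the oocyte leave a trace in the day 14 embryo. None of the members passed the test in any of them. The summed level was 3291 to 4493 scaled CPM (median 4171) in HIGH PA discs, 3818 to 5166 (median 4130) in BASAL discs, and 4134, 4414 and 4987 in the 3 CONTROL discs. In extraembryonic samples it was 3479 to 7349 (median 4684) in HIGH PA and 4314 to 8899 (median 5081) in BASAL, and 4797, 5071, 5247 and 5338 in the 4 CONTROL samples. The groups overlapped in both tissues.

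Between HIGH PA and BASAL, edgeR called 0 of 69 members in discs (4 at an unadjusted p under 0.05, DESeq2 0) and 0 of 71 in extraembryonic samples (1 at an unadjusted p under 0.05, DESeq2 0), and it called 0% of all genes in each. The MRPL33 rows did not pass the filter on low counts in discs, and are among the 71 in the tissue and extraembryonic fits. The median log2 fold change was -0.08 in discs and -0.09 in extraembryonic samples, against 0.01 for all genes in discs and a value within 0.01 of 0 in extraembryonic samples. For a member of median precision the 95% interval was ± 0.33 and ± 0.32 before adjustment over all genes, so a change of that size need not pass the adjusted test. The lowest p in extraembryonic samples was that of MRPL3, whose bacterial counterpart lies near the peptidyl transferase centre. MRPL3 ran from 63.3 to 106 scaled CPM (median 80.2) in HIGH PA, from 83.1 to 161 (median 107) in BASAL, and stood at 103, 107, 117 and 120 in CONTROL. The 2 lowest HIGH PA values, 63.3 and 66.6, were those of the spherical samples. The library at 63.3, of undetermined sex, was not in the fit. Extraembryonic HIGH PA samples were 4 ovoid, 4 tubular and 2 spherical, against 4 ovoid and 10 tubular in BASAL. The medium fits given here had no shape term. Alternatives of HIGH PA over BASAL with shape as a term also called 0 members in discs and in extraembryonic samples. The log2 fold change of MRPL3, HIGH PA over BASAL, was -0.34 (95% interval -0.56 to -0.13, edgeR adjusted p = 0.639). MRPL47, MRPS27, MRPS36 and MRPL19 followed, at -0.25, -0.19, -0.19 and -0.28, each with an adjusted p of 1.00.

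In discs the lowest p belonged to MRPL28 (-0.32, SE 0.14), MRPS34 (-0.33, SE 0.15), MRPL16 (-0.31, SE 0.14), MRPS21 (0.34, SE 0.16) and MRPL44 (0.24, SE 0.12), with adjusted p between 0.514 and 0.565. The HIGH PA effect did not pass the test of a difference between tissues for any member (0 of 71 by edgeR, 1 at an unadjusted p under 0.05, DESeq2 0, and 0% of all genes). MRPL44 had the lowest p there, with a difference of -0.39 (SE 0.17). MRPL53 (0.43, SE 0.24), MRPL28 (0.40, SE 0.23), MRPS21 (-0.44, SE 0.25) and MRPL45 (-0.25, SE 0.17) came next.

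Against CONTROL, which BASAL and HIGH PA share, edgeR called 0 members for BASAL in discs (1 at an unadjusted p under 0.05) and in extraembryonic samples (0 at an unadjusted p under 0.05). It called 0 for HIGH PA in discs (4 at an unadjusted p under 0.05) and in extraembryonic samples (4 at an unadjusted p under 0.05). DESeq2 also called 0 members in each, and edgeR called 0% of all genes in each. The medians of the members were 0.00, 0.12, -0.05 and -0.01 in that order, with 95% intervals for a member of median precision of ± 0.43 to ± 0.45. In BASAL extraembryonic samples MRPL57, MRPL54, MRPS36 and MRPL55 followed MRPL41, at 0.43, 0.37, -0.23 and 0.46, and in BASAL discs MRPL32, MRPS10, MRPL46 and MRPL45 followed MRPL10, at 0.57, 0.56, -0.40 and -0.32. The lowest p-values were those of MRPL10 in BASAL discs (-0.68, SE 0.27), MRPL41 in BASAL extraembryonic samples (0.54, SE 0.29), MRPS34 in HIGH PA discs (-0.46, SE 0.19) and MRPS36 in HIGH PA extraembryonic samples (-0.42, SE 0.14, edgeR adjusted p = 0.478). MRPS36 stood at 47.02, 49.3, 51.1 and 52.6 scaled CPM in the CONTROL samples, at 35.5 to 53.5 in BASAL and at 23.3 to 51.0 in HIGH PA. The lowest HIGH PA value, 23.3, was that of a spherical sample.

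The comparison of embryo shape asks how the less elongated ovoid embryos differ from tubular ones. In extraembryonic samples, 8 of 71 members were called higher in ovoid embryos and 0 lower, in a fit with medium and sex as terms. Of all 11880 genes tested, 5.94% were higher and 5.41% lower. The median of the members was 0.24, against 0.00 for all genes, and 61 of 71 were above 0. The 8 were MRPL43 (0.59, SE 0.14), MRPL41 (0.64, SE 0.16), MRPL4 (0.53, SE 0.14), MRPL20 (0.34, SE 0.10), MRPS9 (0.34, SE 0.10), MRPS2 (0.59, SE 0.18), MRPL36 (0.46, SE 0.14) and MRPL2 (0.54, SE 0.17), with edgeR adjusted p from 0.0132 to 0.0382. MRPL2 and MRPL4 are counterparts of core proteins of the bacterial large subunit, MRPS2 and MRPS9 of bacterial small subunit proteins, and MRPL41 and MRPL43 are specific to mitochondria.

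These calls move with technical labels, whose part in them was not tested beyond the fits given here. With library totals and no scaling factor, 27 members were called higher, and the calls over all genes moved from 706 higher and 643 lower to 1253 higher and 290 lower. Of the 9 ovoid libraries 5 are marked EX_2, against 1 of the 16 tubular ones over 10000 reads, and all 5 extraembryonic libraries of lane 8 are tubular. With the mark as a term the median of the members was 0.01 and 0 were called (11 at an unadjusted p under 0.05). Without the marked libraries the median was 0.15 and 5 were called higher (MRPL2, MRPL4, MRPL36, MRPL46 and MRPS25), 3 of them among the 8. Of all genes, 0.939% were higher and 0.760% lower in that fit, and 0.160% and 0.0168% with the mark as a term. With lane as a term the median was 0.23 and 0 were called (16 at an unadjusted p under 0.05), and without lane 8 it was 0.15 and 0 were called, with 0.0509% of all genes higher. With the recipient cow as a block it was 0.28 and 0 were called (19 at an unadjusted p under 0.05). With lane or cow as a term 0% of all genes were called as well.

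Over all libraries the levels of each of the 8 called members overlapped between shapes. MRPL4 ran from 60.9 to 90.9 scaled CPM in the 15 unmarked tubular libraries. It stood at 94.0, 95.4, 99.9 and 106 in the 4 unmarked ovoid ones, which do not overlap with the tubular range. MRPL4 was called in a fit that included these libraries, and the share of all genes that separate there is not given here. The 5 marked ovoid libraries had 77.8, 104, 126, 146 and 165, and the marked tubular library had 148. MRPL41 ran from 37.4 to 66.3 in unmarked tubular libraries and stood at 47.02, 61.3, 66.9 and 94.0 in unmarked ovoid ones, which overlap. Its marked ovoid libraries had 57.6, 86.8, 87.6, 108 and 133. MRPS2 ran from 51.5 to 99.5 in unmarked tubular libraries and stood at 79.4, 84.9, 105 and 107 in unmarked ovoid ones. MRPL43 ran from 13.1 to 23.3 and stood at 19.8, 21.8, 26.05 and 31.9.

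The summed level of all 71 members was 4219 to 5338 scaled CPM (median 4842) in the 15 unmarked tubular libraries and 5116 to 5666 (median 5232) in the 4 unmarked ovoid ones. Within lane 3 the unmarked ovoid library had 5217 against 4598 to 4912 in 3 tubular ones, and within lane 4 the 2 unmarked ovoid libraries had 5247 and 5666 against 4314 to 5338 in 8. The marked tubular library stood at 8899 and the marked ovoid ones between 4237 and 7349. The unmarked ovoid libraries thus lay at the upper end of the tubular range. These summed levels carry no terms for medium or sex and are not on the scale of the fits. In the fits the members' median was 0.24 on all libraries and 0.15 without the marked ones. Over the 9 ovoid libraries the summed trophectoderm markers ran from 1397 to 5142 scaled CPM, against 2845 to 11790 in the 16 tubular ones, where PPARG and IFNT2 were called lower and GATA2 and ELF5 higher in ovoid embryos. Summed epiblast markers ran from 63.5 to 200 in ovoid and 33.5 to 142 in tubular libraries, and UTF1 was called higher (1.24, SE 0.31). Summed hypoblast markers ran from 26.1 to 68.5 in ovoid and 25.1 to 60.2 in tubular libraries, and GATA4 was called higher (0.49, SE 0.16). The share of intron reads ran from 6.59% to 10.1% in ovoid and 6.39% to 8.01% in tubular libraries. The part of these shifts in the members' result was not tested.

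**Figure D5:**
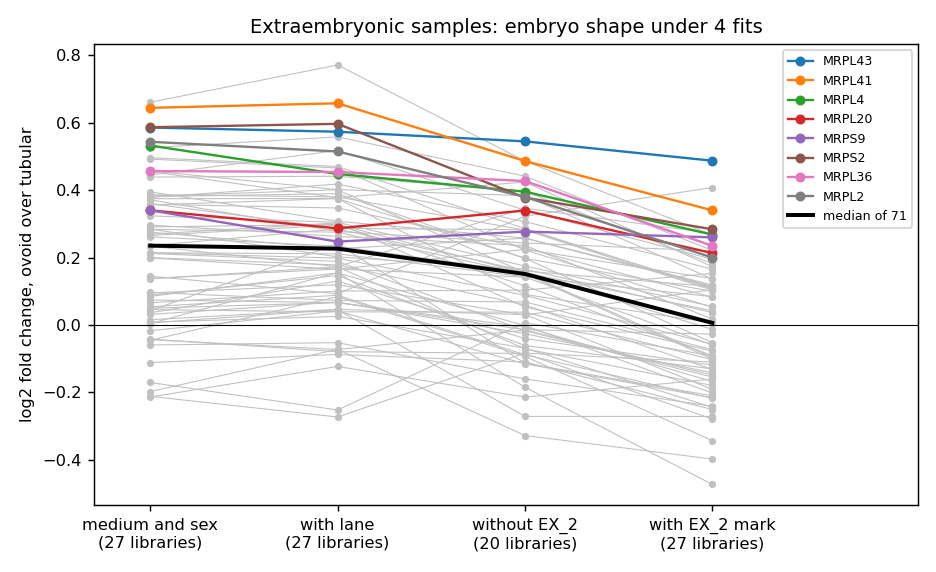
log2 fold change of ovoid over tubular embryos in extraembryonic samples for the 71 members (grey), the 8 called members (coloured) and the median (black), under 4 fits. The median goes from 0.24 with medium and sex as terms to 0.23 with lane added, 0.15 without the libraries marked EX_2 and 0.01 with the mark as a term.

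For shape in extraembryonic samples, set against the 5.94% of all genes called higher and 5.41% lower, the other lists gave these counts. Called higher were 2 of 18 synthetases, 1 of 5 other mitoribosomal proteins (AURKAIP1, 0.44, SE 0.15), 1 of 23 assembly factors (RPUSD3, 0.44, SE 0.12), 1 of 13 factors of mitochondrial DNA and its transcripts (ELAC2, 0.36, SE 0.11) and 0 of 15 translation factors. Of 8 regulators, MYC (0.51, SE 0.16) and PPRC1 (0.31, SE 0.10) were higher and GABPA (-0.38, SE 0.11) lower. Cytosolic ribosomal proteins had a median of 0.22 (44 of 45 above 0, 1 called) and nuclear oxidative phosphorylation genes of 0.13 (45 of 56 above 0, 1 called). MARS2 (0.60, SE 0.13) and VARS2 (0.55, SE 0.12), both aminoacyl-tRNA synthetases, were called higher in ovoid embryos. Among the members named for other reasons, MRPS36 stood at -0.21 (SE 0.09, adjusted p = 0.0957) and MRPS12 at 0.53 (SE 0.18, adjusted p = 0.0544) by edgeR. MRPL3, MRPL44 and MRPS30 were between -0.02 and 0.05.

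In discs, edgeR called 0 of 69 members between ovoid and tubular embryos (3 at an unadjusted p under 0.05, DESeq2 0), and 0% of all genes. Of the members 58 were above 0 and the median was 0.12, against -0.01 for all genes. The summed level was 4107 to 5166 scaled CPM (median 4233) in 8 ovoid discs and 3291 to 4987 (median 4132) in 14 tubular discs, which overlap. The lowest p-values were those of MRPL36 (0.39, SE 0.13), MRPL34 (0.38, SE 0.18), MRPL54 (0.30, SE 0.14), MRPS26 (0.28, SE 0.14) and MRPL48 (0.36, SE 0.19), with adjusted p from 0.561 to 0.720. The shape effect did not pass the test of a difference between tissues for any member (0 of 71 by edgeR, 2 at an unadjusted p under 0.05, DESeq2 0, and 0% of all genes). MRPS34 had the lowest p there (0.50, SE 0.19), and MRPL2, MRPL58, MRPL4 and MRPL46 followed at 0.53, 0.45, 0.38 and 0.47.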

How the data were processed

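The values are counts of exon reads per gene in 1 table deposited by the authors, with 53 mapped libraries and UMD3.1 coordinates. Libraries were made with a stranded mRNA kit and sequenced as paired reads, per the labels' protocols. UMD3.1 and DESeq2 1.10.1 are named in the submitters' processing notes, and no label or header names the aligner. The deposited counts of uniquely placed exon reads and of intron reads served as checks.

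Counts were tested with edgeR 4.0.16 (R 4.3.3), trimmed-mean scaling, filterByExpr and the quasi-likelihood F test, with Benjamini-Hochberg adjustment over all genes tested and a threshold of 0.05. The tissue fit had embryo as a block (46 libraries of 23 embryos, where both parts come from the same embryo). Fits of media and shape had medium and sex as terms, and 1 extraembryonic library of undetermined sex was left out of them. SE is the log2 fold change divided by the root of F, and intervals are ± 1.96 SE. Differences per embryo used a pseudocount of 0.5. DESeq2 1.42.0 and limma 3.58.1 gave alternatives, and the scripts were tested on simulated data. Replicates are separate embryos, some from the same cow.

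Named are all called members where 15 or fewer were called, otherwise, for either direction, the 8 with the smallest p and the 3 with the greatest change, the 5 of lowest p where 0 were called, some preset members, and up to 3 called genes of each other list. The members and lists were chosen with earlier results of these data known. Symbols with no row (MRPL12, MRPL17, MRPL23, MRPL30, MRPL37, MRPS14, MRPS15 and MRPS17, 8 of 78 RefSeq symbols) were not analysed here. None of the 1378 pairs of libraries held identical counts. Some results for single genes of the other lists are not reported here.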

Additional observations from a re-analysis of the deposited data

Results flagged for a closer look

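In groups of 4 to 10 libraries, 17 of 84 tests found a highest or lowest library far from its nearest neighbour by Dixon's criterion. Chance gives about 1 in 20 for independent tests, but these tests share libraries, so the count cannot be set against that rate. Of the 17, 6 belong to ED HIGH PA replicate 5, which holds 119116 reads, 619 of them on members. There MRPL50 stood at 75.5 scaled CPM (next 43.98), MRPS18B at 144 (next 66.9), MRPS9 at 96.1 (next 53.7), MRPS2 at 165 (next 70.6), MRPL36 at 96.1 (next 56.0) and MRPS12 at 0 (next 18.3).

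In the other HIGH PA discs, the summed level was 3291 in replicate 3 (next 4062), MRPL33_1 was 6.23 in replicate 2 (next 2.19) and MRPL33_2 was 7.84 in replicate 1 (next 3.46). In EX HIGH PA replicate 3, which is marked EX_2, MRPL41 stood at 133 (next 86.8), MRPL4 at 165 (next 104) and MRPS2 at 203 (next 109). MRPL44 stood at 27.5 in the spherical EX HIGH PA replicate 9 (next 51.0). In EX CONTROL replicate 4, the only ovoid CONTROL sample, MRPS12 stood at 37.9 (next 22.7), MRPS34 at 109 (next 76.5) and MRPS2 at 107 (next 64.6). MRPL33_1 stood at 1.06 in EX CONTROL replicate 2 (next 3.16).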

How the results depend on the processing

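In the tissue comparison the count of members higher in EX ran from 11 to 56 over 15 alternatives and the median from 0.12 to 0.45. Alternatives by library totals, lane, mark, medium or shape in this comparison were chosen after seeing the data. In the shape and medium comparisons, those by library totals, lane or mark were also chosen then. So was the test of a difference in the shape effect between tissues. Members called higher numbered 23 with library totals, 11 in CONTROL embryos only, 22 in HIGH PA embryos only and 19 in ovoid embryos only. The last 3 fits called 14.6%, 10.2% and 7.59% of all genes higher. Members called lower numbered 6 with library totals, 2 without marked embryos, and 0 in BASAL, HIGH PA or ovoid embryos only, which hold fewer samples. All genes called lower in these last 3 fits made up 25.1%, 18.4% and 13.7%. MRPS18B turned to -0.028 with library totals and -0.093 in CONTROL embryos only, and MRPS12 to -0.12 in CONTROL embryos only. Without the embryo as a replicate block, 45 members were higher and 1 lower, with a median of 0.35.

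In the extraembryonic shape comparison the 8 calls became 13 with DESeq2 size factors, 27 with library totals and 18 with limma-voom and the flush as a correlated block. They became 5 without marked libraries and 1 with plate row as a term. Of all 11880 genes, DESeq2 size factors called 642 higher and 434 lower, and library totals 1253 and 290. Limma-voom called 592 and 450, and plate row as a term 247 and 241. The fit with medium and sex as terms called 706 and 643. Without marked libraries, 105 of 11188 genes were higher and 85 lower. The 8 calls became 0 with cow, lane or the mark as a term, without lane 8, and in BASAL or HIGH PA embryos only. The fits in BASAL or HIGH PA embryos only held 14 and 9 libraries. Of all genes they called 0.00924% and 0% higher, and 0% lower in each. The medians of the members were 0.33 and 0.46 there, with 55 and 66 of 71 above 0. No medium comparison called a member under any alternative run, but medians turned. With cow as a block, BASAL over CONTROL gave -0.18 in discs and -0.11 in extraembryonic samples, and HIGH PA over CONTROL gave -0.17 and -0.25. In extraembryonic samples HIGH PA over CONTROL gave 0.20 with lane as a term, and HIGH PA over BASAL gave -0.17 with the mark as a term and 0.0070 without marked libraries. The cause of these shifts was not tested. Depth limits the discs most, where the MRPL33 rows did not pass the filter.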

Other observations

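The 2 spherical extraembryonic samples, both HIGH PA, had summed levels of 3479 and 3818 scaled CPM, the lowest of the 27 extraembryonic libraries. They were also the shallowest of these (340016 and 1068407 reads), the only ones on lane 1 and those with the highest intron shares (10.5% and 11.2%), and the second is marked EX_2. The part of these in their level was not tested. The 2 undissected HIGH PA embryos, which hold both parts, stood at 4131 (spherical) and 5211 (ovoid).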
